A study of Mus musculus with 8 samples.

Results

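To follow the genes that make cholesterol and fatty acids in myoblasts depleted of Septin9, 32 genes were taken by symbol from the raw count matrix of 42391 gene entries, and all 32 were found, with no row named as a further copy. They comprise 8 enzymes that lead from acetyl-CoA through mevalonate to squalene, 10 that convert squalene into cholesterol, 5 regulators and transport proteins of the pathway and 9 enzymes of fatty acid synthesis, elongation and desaturation. The samples were mouse C2C12 cells, an immortal myoblast line that forms myotubes when serum is withdrawn, and primary myoblasts (pMb), cultured from hindlimb muscle of 5 weeks old mice. Each received a non-targeting siRNA (control, labelled WT) or an siRNA against Septin9 (labelled Septin 9 KD), with 2 replicates for each of the 4 groups. C2C12 cells were collected 60 h after transfection, the last 12 h in differentiation medium, whereas pMb were collected after 48 h in proliferation medium. The labels name no altered allele, and the strain of the mice and whether cells of several mice were pooled are not given in the sources used here. The samples of a cell type came from independent experiments, taken here to be the replicate numbers of the labels. C2C12 is a single line, and whether the pMb came from separate isolations is not given either. In the tests of the siRNA, samples were compared within an experiment, so the p-values refer to the variation of the change between these experiments. Between the controls, which were not paired, they refer to the spread between the experiments. The spread of a gene was estimated together with the other genes tested, mostly from these in the tests of the siRNA. An SE therefore follows a gene's own replicates only in part.

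Cells obtain cholesterol either by uptake or by synthesis in the endoplasmic reticulum. Synthesis is controlled by feedback: when membrane sterol is low, SCAP escorts the precursors of the transcription factors SREBP-1 (gene Srebf1) and SREBP-2 (gene Srebf2) to the Golgi, where proteases release the active factors, and when sterol is ample the INSIG proteins hold SCAP back. SREBP-2 acts mainly on sterol genes and SREBP-1c mainly on fatty acid genes, and both kinds of lipid are building blocks of the membranes of growing and fusing myoblasts.

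SREBP factors act at promoters together with NF-Y, which binds CCAAT, and Sp1, which binds GC boxes. RefSeq promoter windows on GRCm38.p6, reaching from 250 bases before to 50 bases after a start site, were at hand for 25 of the 32 genes. The letters CCAAT, read on both strands, stood in a window of 20 of these 25 genes (80.0%), against 41.1% of the 27025 genes with a window. The GC box GGGCGG, on both strands, stood in 21 of 25 (84.0%), against 38.2% of all genes. The sterol regulatory element searched as TCACNCCAC, on both strands, was found in Hmgcs1 alone, which makes 4.0% of the 25 genes against 1.44% of all genes. Only these exact letters were counted, with any base at N, so an element that differs from them in a letter was missed. No match of one motif overlapped a match of another. A match describes letters in this window and no binding was measured. The stretches below are the 200 bases directly before the start site of 5 genes whose transcripts fell in C2C12 cells, and of Srebf2, whose transcript did not pass the test. They are written 5′ to 3′ on the strand of the gene, with CCAAT or its reverse complement ATTGG and the sterol regulatory element in capitals.
Hmgcs1 promoter, chr13:119690151-119690350, plus strand: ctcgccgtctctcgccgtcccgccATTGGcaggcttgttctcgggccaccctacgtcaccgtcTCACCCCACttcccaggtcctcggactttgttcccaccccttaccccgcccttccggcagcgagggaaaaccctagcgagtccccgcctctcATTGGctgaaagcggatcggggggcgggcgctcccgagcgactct
Idi1 promoter, chr13:8885406-8885605, plus strand: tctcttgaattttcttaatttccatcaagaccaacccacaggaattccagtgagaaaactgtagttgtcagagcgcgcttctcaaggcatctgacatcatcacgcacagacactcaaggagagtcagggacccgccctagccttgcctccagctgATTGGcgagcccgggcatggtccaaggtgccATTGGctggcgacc
Lss promoter, chr10:76531405-76531604, plus strand: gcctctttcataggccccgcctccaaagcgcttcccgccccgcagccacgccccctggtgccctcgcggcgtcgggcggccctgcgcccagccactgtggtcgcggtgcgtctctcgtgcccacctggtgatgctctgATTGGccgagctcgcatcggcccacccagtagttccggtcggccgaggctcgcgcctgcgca
Cyp51 promoter, chr5:4104698-4104897, minus strand: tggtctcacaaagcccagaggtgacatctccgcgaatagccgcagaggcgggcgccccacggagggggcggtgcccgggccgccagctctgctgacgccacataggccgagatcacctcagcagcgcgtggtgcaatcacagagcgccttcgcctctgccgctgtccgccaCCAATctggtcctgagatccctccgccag
Sc5d promoter, chr9:42264301-42264500, minus strand: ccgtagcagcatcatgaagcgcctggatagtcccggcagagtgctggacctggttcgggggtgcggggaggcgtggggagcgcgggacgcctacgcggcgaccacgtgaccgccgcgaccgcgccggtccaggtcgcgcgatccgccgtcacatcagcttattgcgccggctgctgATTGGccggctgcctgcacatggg
Srebf2 promoter, chr15:82147069-82147268, plus strand: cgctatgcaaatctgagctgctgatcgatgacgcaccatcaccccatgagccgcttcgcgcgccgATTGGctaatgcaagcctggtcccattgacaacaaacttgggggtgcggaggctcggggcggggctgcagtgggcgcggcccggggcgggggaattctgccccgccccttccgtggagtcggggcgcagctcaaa
The Hmgcs1 stretch carried the sterol element 137 bases before the start and CCAAT letters on either side of it. The other stretches carried CCAAT letters and no exact match of the sterol element. Of the 16 genes with a window that fell in C2C12 cells, 13 held CCAAT, and of the 9 other genes with a window, 7 did.

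Values are CPM, the counts of a gene divided by all counted reads and rescaled to a common total, further scaled by TMM, and each siRNA sample was compared with the control of the same replicate number. The total count was between 20898611 and 26869868 reads per C2C12 sample and between 21133806 and 27223414 per pMb sample, and all 32 genes passed the filter on low counts in every comparison. Septin9, the gene the siRNA targets, stood at 430 and 441 CPM in the C2C12 controls and at 151 and 189 CPM after siRNA. In pMb it stood at 365 and 459 CPM in controls and at 199 and 157 CPM after siRNA. It fell by 1.36 ± 0.08 (log2 fold change ± SE, n = 2 pairs; adjusted p = 5.11e-09, edgeR quasi-likelihood test, Benjamini-Hochberg adjusted) in C2C12 cells and by 1.21 ± 0.15 (adjusted p = 0.000134) in pMb.

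The labels of differentiation were compared with marker transcripts. The summed level of 9 muscle differentiation genes was 37.2 and 162 CPM in the C2C12 controls and 15476 and 4263 CPM in the pMb controls, so the cells labelled as proliferating held far more of these transcripts than the cells labelled as differentiating. Transcripts of 5 myogenic genes were present in both, with a summed level of 720 and 976 CPM in C2C12 controls and 3047 and 2408 CPM in pMb controls. Of the adipocyte genes, which would mark a lipid-storing cell, Adipoq, Plin1 and Cidec were at 0 in all C2C12 samples and at most 0.142 CPM in pMb. With Fabp4 and Cebpa, the list of 5 summed to 18.4 and 22.1 CPM in C2C12 controls and 6.01 and 11.8 CPM in pMb controls. Cebpa, the 1 gene of the list tested between the controls, was higher in C2C12 cells (log2 difference 1.27, adjusted p = 0.0458, edgeR), where 16.2% of all genes tested were.

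The genes of lipid synthesis were far more abundant in C2C12 cells than in pMb. Together they took 0.787% and 0.471% of all counted reads in the C2C12 controls and 0.229% and 0.199% in the pMb controls. Between the controls, 24 of the 32 genes were higher in C2C12 cells, where 16.2% of all genes tested were, and 1 was lower (background 18.3%), in edgeR's quasi-likelihood test on the 4 control samples. The median log2 difference of the 32 genes was 1.53, against -0.01 over all genes. Both C2C12 values lay above both pMb values for 29 of the 32 genes, where this held for 37.5% of all genes, and the groups overlapped for Fasn and Hsd17b7.

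**Figure D1:**
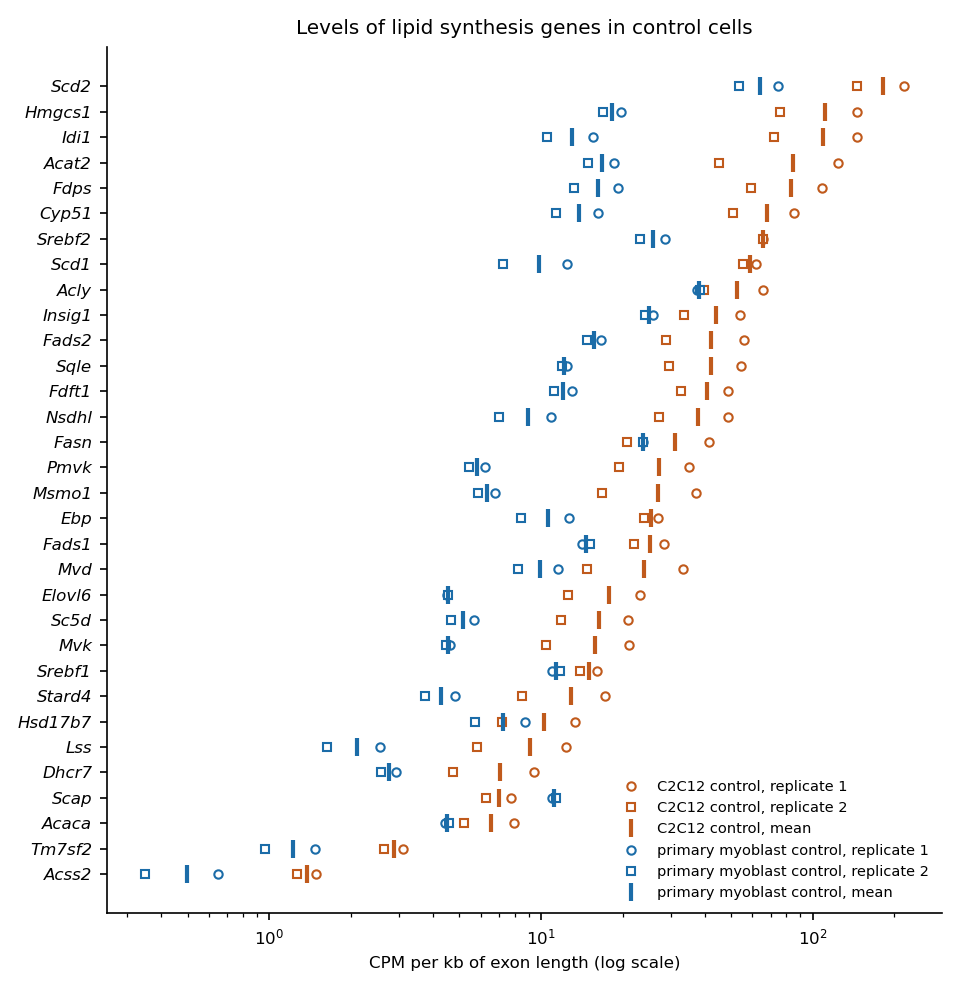
Levels of the 32 genes in control cells, as CPM per kb of exon length on a log axis. Open circles and squares are replicates 1 and 2 and vertical ticks are means, with C2C12 cells in orange and primary myoblasts in blue. The C2C12 values lie to the right of the primary myoblast values for most genes, and Scap is the gene with the opposite order.

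The enzymes before squalene had a median log2 difference of 2.27, against 1.72 for those after squalene, 0.81 for the regulators and transport proteins and 1.42 for the fatty acid genes. Idi1, which isomerizes isopentenyl diphosphate, had 512 and 252 CPM in C2C12 controls and 54.6 and 36.8 CPM in pMb controls when all samples were scaled together. This was an 8.31-fold higher level in C2C12 cells (log2 difference 3.05 ± 0.43, SE; adjusted p = 0.0102, edgeR). Hmgcs1, which makes HMG-CoA in the cytosol, was 6.03-fold higher (adjusted p = 0.00997, edgeR), Fdps, which makes farnesyl diphosphate, 5.11-fold (adjusted p = 0.0129) and Acat2, which joins acetyl-CoA units, 5.00-fold (adjusted p = 0.0267). Scd1, the desaturase that makes oleate, stood out among the fatty acid genes with a 5.96-fold higher level (adjusted p = 0.00752, edgeR). By contrast, Acly, Acaca and Fasn, which lead from citrate to palmitate, did not pass the test, with ratios of 1.38, 1.44 and 1.31. Mvd, Hsd17b7, Srebf1 and Insig1 did not pass either, with ratios from 1.31 to 2.40. Srebf2 was 2.52-fold higher in C2C12 cells (adjusted p = 0.00871, edgeR), and Scap was lower, at 0.625 of the pMb level (adjusted p = 0.0330). When 1 control sample was left out, fewer of the 32 genes were called in each case, and the direction of the 25 called genes was kept. Cell type, medium and time of collection differed together here and cannot be told apart.

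Per kb of exon, the order of the genes also differed between the cells. In C2C12 controls the leading transcripts were Scd2, a desaturase, at 182 ± 50.2 CPM per kb (SD, n = 2), Hmgcs1 at 111 ± 49.6, Idi1 at 109 ± 52.3, Acat2 at 84.5 ± 55.4 and Fdps at 83.6 ± 34.4. Scd2 led in both replicates, with 217 and 146 CPM per kb, whereas Hmgcs1 and Idi1 were level in replicate 1 and the order of Acat2 and Fdps differed between the replicates. In replicate 2 Srebf2 (65.6 CPM per kb) stood above Fdps (59.2), and Scd1 (55.7) and Cyp51 (50.9) stood above Acat2 (45.3). In pMb controls Scd2 led with 64.1 ± 14.7 CPM per kb, ahead of Acly at 38.1 ± 0.65, Srebf2 at 25.9 ± 3.81, Insig1 at 24.9 ± 1.19 and Fasn at 23.8 ± 0.04. The order of Srebf2, Insig1 and Fasn differed between the replicates. The scarcest transcripts in both cells were those of Tm7sf2, a sterol reductase, at 2.87 ± 0.31 and 1.22 ± 0.36 CPM per kb in C2C12 cells and pMb, and Acss2, which activates acetate, at 1.38 ± 0.16 and 0.50 ± 0.21. Levels per kb depend on the length chosen: per kb of the longest transcript, Acss2 stood at 3.87 and 1.40, and in C2C12 controls Fdps, at 119, stood above Acat2, at 95.5.

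After Septin9 siRNA, transcripts of cholesterol synthesis fell in C2C12 cells. Of the 32 genes, 20 fell and none rose at an adjusted p under 0.05, where 4.12% of the 15814 genes tested fell and 2.64% rose (edgeR, and 1 gene with a value above 0, Scap, had an unadjusted p under 0.05). All 8 genes from acetyl-CoA to squalene fell, as did 7 of 10 from squalene to cholesterol, 2 of 5 regulators and transport proteins and 3 of 9 fatty acid genes. The median log2 fold change was -0.34, a decrease of 20.8%, against -0.00 over all genes, and the single values ran from -0.67 to 0.19. Only Lss and Stard4 passed the 1.5-fold threshold for differentially expressed genes of the study's methods as well, which 0.74% of all genes met in that direction. In bulk RNA, fewer cells of one kind and less RNA per cell cannot be told apart.

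**Figure D2:**
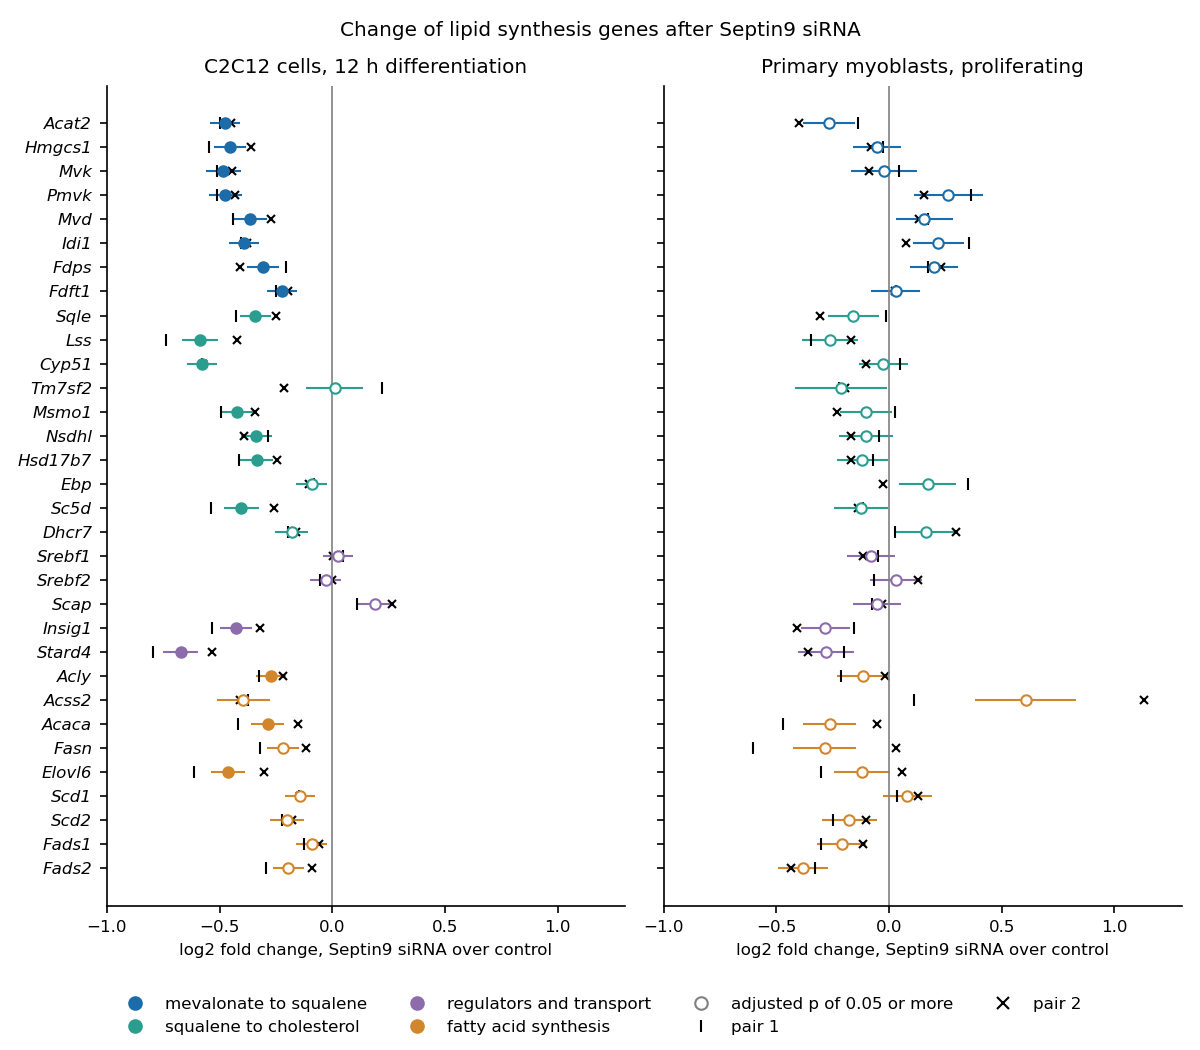
Log2 fold change of the 32 genes after Septin9 siRNA in C2C12 cells (left) and primary myoblasts (right), coloured by their place in the pathway. Circles are fitted values with SE, filled where the adjusted p was under 0.05, and the bar and cross are the ratios of replicate pairs 1 and 2. In C2C12 cells 20 circles are filled, all left of 0, and in primary myoblasts none is filled.

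At the entry of the mevalonate pathway, Acat2 had 330 and 117 CPM in the C2C12 controls 1 and 2 and 234 and 85.6 CPM in the siRNA samples 1 and 2. It fell by 0.48 ± 0.07 (log2 fold change ± SE, adjusted p = 0.000137, edgeR quasi-likelihood test). Hmgcs1 had 704 and 353 CPM in controls and 482 and 275 CPM after siRNA. In both genes each siRNA sample lay under the control of its own experiment, but the first siRNA sample lay above the second control. Hmgcs1 fell by 0.45 ± 0.07 (adjusted p = 0.000587). Mvk, mevalonate kinase, had 59.2 and 28.4 CPM in controls and 41.5 and 20.8 CPM after siRNA. Pmvk, phosphomevalonate kinase, had 63.1 and 33.5 CPM in controls and 44.3 and 24.8 CPM after siRNA. Both kinases were lower within each experiment and fell by 0.48 and 0.47. Mvd, the decarboxylase that follows them, had 64.8 and 27.8 CPM in controls and 47.8 and 23.0 CPM after siRNA, and fell by 0.36.

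The isoprenoid steps follow. Idi1 had 537 and 256 CPM in controls and 406 and 197 CPM after siRNA, a decrease that was nearly the same in both pairs (log2 ratios -0.40 and -0.38) and that reached an adjusted p of 0.00113 in edgeR. Fdps had 477 and 253 CPM in controls and 413 and 190 CPM after siRNA, and was the gene of this arm with the smaller ratio in the first pair (-0.21 against -0.41). Fdft1, squalene synthase, which commits farnesyl diphosphate to sterols, had 217 and 140 CPM in controls and 183 and 122 CPM after siRNA. It fell by 0.22, the least of the 8 genes, with an adjusted p of 0.0467 in edgeR, close to the threshold. Across this arm the median log2 fold change was -0.42.

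Beyond squalene, the genes of sterol ring closure and of the first demethylation, Lss and Cyp51, had the largest decreases of all enzymes listed. Sqle, squalene epoxidase, had 318 and 167 CPM in controls and 236 and 140 CPM after siRNA. Lss, which folds oxidosqualene into lanosterol, had 140 and 63.8 CPM in controls and 84.1 and 47.6 CPM after siRNA. Lss fell by 0.59 ± 0.08 (adjusted p = 8.97e-05, edgeR), more in the first pair (-0.74) than in the second (-0.42). Cyp51, the lanosterol demethylase, had 394 and 228 CPM in controls and 264 and 153 CPM after siRNA. It fell by 0.58 ± 0.07 (adjusted p = 1.59e-05, edgeR), with ratios of -0.58 and -0.57 in the pairs, and so was lower to the same extent in both experiments. Msmo1, which oxidizes the methyl groups at carbon 4 of the ring, had 241 and 104 CPM in controls and 171 and 82.3 CPM after siRNA, and Nsdhl, its partner in that step, had 146 and 78.4 CPM in controls and 120 and 59.7 CPM after siRNA. Hsd17b7, the ketoreductase of the same complex, had 71.5 and 37.3 CPM in controls and 53.6 and 31.5 CPM after siRNA. These 3 genes of C4 demethylation fell by 0.42, 0.34 and 0.33.

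The last steps were uneven. Sc5d, which introduces a double bond into the sterol ring, had 107 and 58.5 CPM in controls and 73.4 and 48.9 CPM after siRNA and fell by 0.40 (adjusted p = 0.00257, edgeR). Ebp, the sterol isomerase before it, and Dhcr7, the reductase that yields cholesterol, had log2 fold changes of -0.09 and -0.18 and did not pass the test (adjusted p = 0.540 and 0.179, edgeR). Tm7sf2, a reductase of low abundance, was the gene of the pathway whose pairs differed in sign, with ratios of 0.22 and -0.22.

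**Figure D3:**
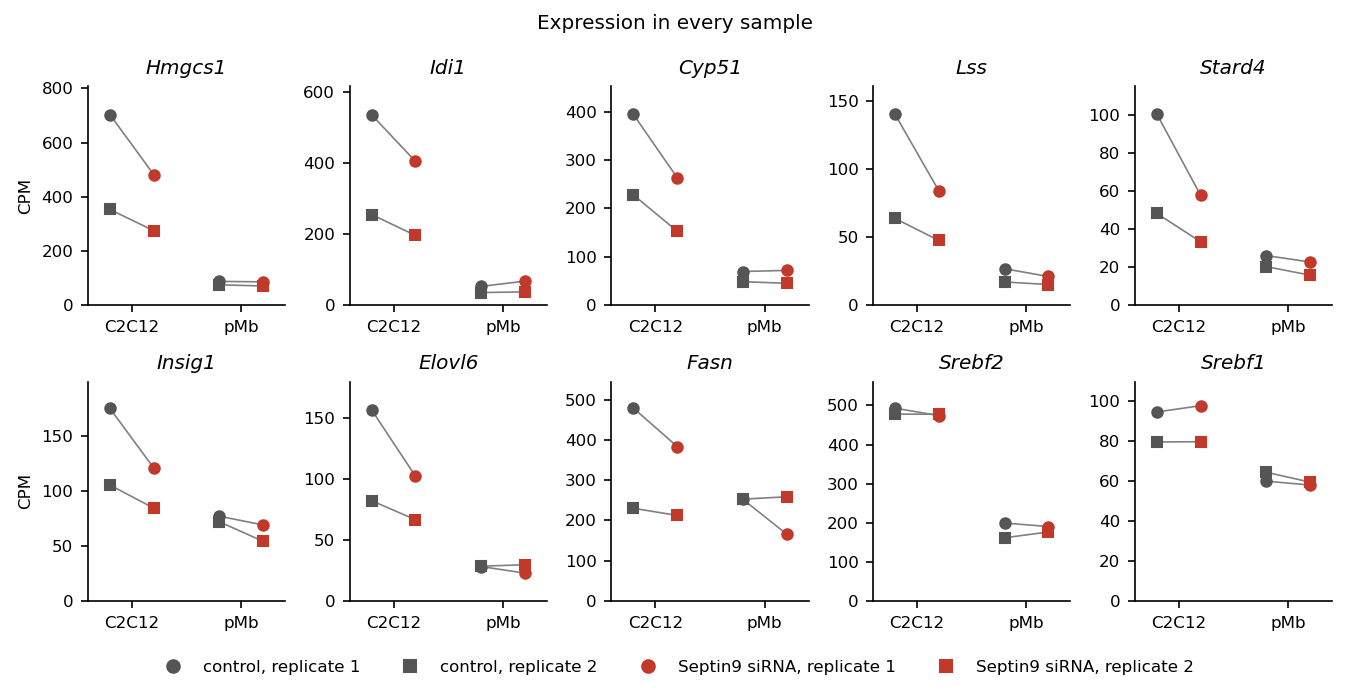
CPM of 10 of the genes in every sample, scaled within each cell type, with C2C12 cells on the left and primary myoblasts (pMb) on the right of each panel. Grey symbols are controls, red symbols are Septin9 siRNA samples, circles and squares are replicates 1 and 2, and a line joins each pair. In C2C12 cells the lines of Hmgcs1, Idi1, Cyp51, Lss, Stard4, Insig1 and Elovl6 slope down in both experiments, while those of Srebf1 and Srebf2 are nearly level.

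Among the regulators, the SREBP genes and Scap did not pass the test. Srebf2 had 493 and 478 CPM in C2C12 controls and 474 and 477 CPM after siRNA. Srebf1 had 94.6 and 79.6 CPM in controls and 97.8 and 79.7 CPM after siRNA. Their log2 fold changes were -0.03 ± 0.07 and 0.02 ± 0.07, small beside the decreases of the enzymes, and did not pass the test (adjusted p = 0.883 and 0.901, edgeR). Scap was above its control in both pairs, by 0.11 and 0.27, without passing the test (adjusted p = 0.146, edgeR). Transcript levels do not report the proteolytic release of SREBP proteins, which was not measured here.

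Insig1 and Stard4 are themselves sterol-responsive genes and fell with the enzymes. Insig1, which retains SCAP, had 176 and 106 CPM in controls and 121 and 84.7 CPM after siRNA, and fell by 0.43 ± 0.07 (adjusted p = 0.000813, edgeR). Stard4, which carries cholesterol between membranes, had 101 and 48.3 CPM in controls and 57.9 and 33.4 CPM after siRNA. Its decrease of 0.67 ± 0.08 was the largest of the 32 genes (adjusted p = 1.59e-05, edgeR), with ratios of -0.80 and -0.53 in the pairs.

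Fatty acid genes were below their controls in both pairs for 9 of 9 genes, where 31.4% of all genes were, but the median log2 fold change was -0.22 and 3 passed the test. Elovl6, which lengthens palmitate, had 156 and 82.0 CPM in controls and 102 and 66.5 CPM after siRNA and fell by 0.46 ± 0.08 (adjusted p = 0.000810, edgeR). Acly, which makes cytosolic acetyl-CoA from citrate, had 363 and 214 CPM in controls and 290 and 184 CPM after siRNA. Acaca, which makes malonyl-CoA, had 142 and 89.8 CPM in controls and 106 and 80.8 CPM after siRNA. They fell by 0.27 and 0.29, with adjusted p of 0.0170 and 0.0217 in edgeR. Fasn, fatty acid synthase itself, had 479 and 230 CPM in controls and 383 and 212 CPM after siRNA, and missed the threshold with -0.22 ± 0.07 (adjusted p = 0.0734, edgeR). Acss2 missed it narrowly, with -0.39 ± 0.12 (adjusted p = 0.0523, edgeR). The desaturases Scd1, Scd2, Fads1 and Fads2 had values from -0.09 to -0.20, and none passed.

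For most genes the change after siRNA was smaller than the difference between the experiments. In C2C12 cells control 2 was lower than control 1 for 32 of 32 genes, where this held for 49.9% of all genes, with a median log2 difference of -0.91. That difference was larger than the change after siRNA for 31 of the 32 genes. Both siRNA samples lay under both controls for 2 of 32 genes, Acss2 and Srebf2, against 12.7% of all genes. Within pairs, 29 of 32 genes were lower in both, where 31.4% of all genes were, and the medians of the pairs were -0.39 and -0.25. The call therefore rests on the pairing of samples by replicate number: without the replicate block none of the 32 genes passed in C2C12 cells, nor did any other gene as a lower one (0% called; adjusted p = 1.00 for each of the 20, edgeR), and none of the 20 had an unadjusted p under 0.05, while their directions were kept. DESeq2 with the block called 14 of the 20 genes, where 1.58% of all genes were called lower, and DESeq2 on the deposited batch-corrected counts called all 20, where 3.95% were. On the batch-corrected counts Fasn and Scd2 passed as well (adjusted p = 0.0145 and 0.000531, DESeq2), which made 22 of the 32 genes. With all 8 samples in 1 fit, 3 passed, where 0.424% of all genes were called lower. With only the second pair, none passed, where 0.231% of all genes were called lower, and with only the first pair 3 did, where 0.479% were, in a fit that assumes the lone pair to vary like the other cell type.

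**Figure D4:**
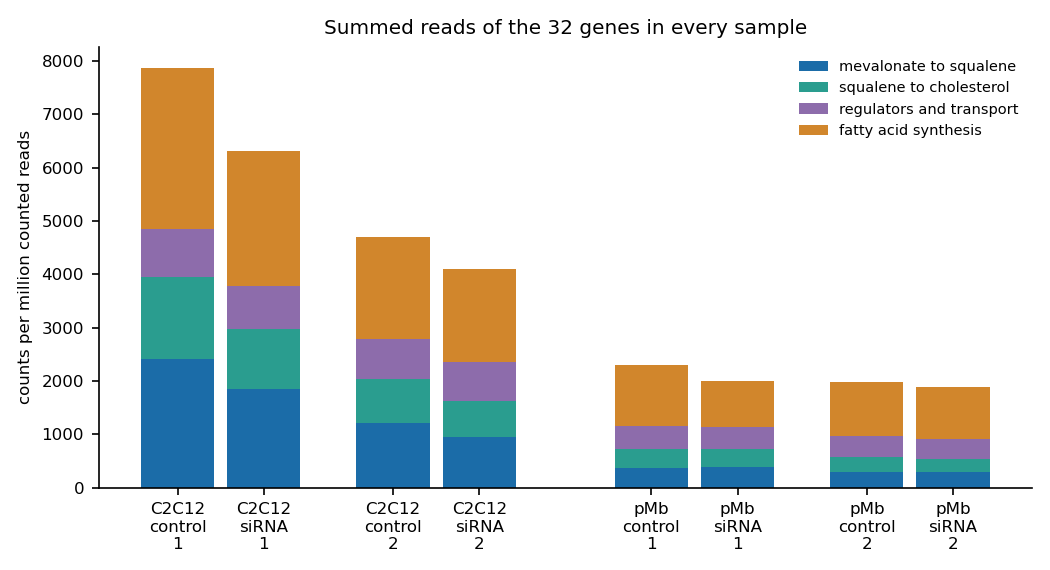
Summed counts of the 32 genes in every sample, scaled to the same total of counted reads (the unit on the axis) but not by TMM, stacked by place in the pathway. The C2C12 controls stand at 7873 and 4706 and the matching Septin9 siRNA samples at 6308 and 4109, and the primary myoblast samples lie between 1887 and 2293.

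Other transcripts moved with the lipid genes between the C2C12 samples. The summed level of 8 proliferation genes was 1772 and 860 CPM in controls 1 and 2 and 1446 and 719 CPM after siRNA. Of these 8, 5 (Mki67, Top2a, Cdk1, Ccnb1 and Ccna2) fell, where 4.12% of all genes tested did. The summed level of the 9 muscle differentiation genes went the other way, from 37.2 and 162 CPM in controls to 71.8 and 225 CPM after siRNA. Of these 9, 7 rose, where 2.64% of all genes tested did, and 1 was lower in both pairs without passing (log2 fold change -0.40). The part of these lists in the decrease of the lipid genes was not tested. Of 5 fibroblast genes 3 were tested in C2C12 cells and none passed (1 had an unadjusted p under 0.05), with summed levels of 2266 and 2955 CPM in controls and 2600 and 2855 CPM after siRNA. The 4 endothelial and 4 macrophage genes summed to at most 0.280 and 1.96 CPM in any C2C12 sample, and the adipocyte gene Cebpa, the 1 tested of 5, rose by 0.69.

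In pMb, none of the 32 genes passed the test, where 1.04% of the 17117 genes tested fell and 3.95% rose (edgeR, Benjamini-Hochberg), and 6 had an unadjusted p under 0.05, against 16.7% of all genes. DESeq2, with the block or on the deposited batch-corrected counts, also gave 0 called genes. The median log2 fold change was -0.10, against 0.01 over all genes, with 22 values below 0 and 10 above, where 48.3% of all genes were below 0. In both pairs 17 genes were lower, where 29.2% of all genes were, and 8 were higher, where 32.8% were. Of the mevalonate arm 5 of 8 genes were higher in both pairs, and the arm had a median of 0.09.

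The largest values in pMb came from genes of different arms. Acss2 had 6.38 and 3.43 CPM in controls and 6.90 and 7.60 CPM after siRNA, a log2 fold change of 0.61 ± 0.23 (adjusted p = 0.152, edgeR) that lay mostly in the second pair (0.11 and 1.13). Fads2, the delta-6 desaturase, had 53.2 and 47.4 CPM in controls and 42.4 and 35.1 CPM after siRNA, and came closest to the threshold with -0.38 ± 0.11 (adjusted p = 0.0544, edgeR). Both Fads2 values after siRNA lay under both controls. Insig1 had 77.3 and 72.2 CPM in controls and 69.4 and 54.4 CPM after siRNA (log2 fold change -0.28). Stard4 had 26.1 and 20.3 CPM in controls and 22.7 and 15.8 CPM after siRNA (-0.28). These genes, which fell in C2C12 cells, were thus below their paired controls in pMb too, without passing the test. Acat2 had 46.0 and 36.8 CPM in controls and 41.9 and 27.9 CPM after siRNA (-0.27), and Pmvk had 10.3 and 9.06 CPM in controls and 13.3 and 10.1 CPM after siRNA (0.26).

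Fasn and Acaca differed between the pMb experiments. Fasn had 252 and 253 CPM in controls and 166 and 259 CPM after siRNA, so that the first pair gave -0.60 and the second 0.03. Acaca had 73.8 and 75.8 CPM in controls and 53.2 and 73.1 CPM after siRNA, with ratios of -0.47 and -0.05. Only the first siRNA sample was low for these enzymes. The number of called genes depended on single experiments: the second pair alone called 6 (Acss2, Insig1, Sqle, Acat2, Stard4 and Fads2), where 11.1% of all genes were called, and the first pair alone called 4 (Acaca, Fasn, Idi1 and Ebp), where 6.97% were, in the fit that borrows the spread of the other cell type. In pMb the summed level of the proliferation genes was 1008 and 1205 CPM in controls and 791 and 971 CPM after siRNA, and that of the muscle differentiation genes was 15476 and 4263 CPM in controls and 20503 and 10113 CPM after siRNA. Of the fibroblast genes, 4 of 5 were tested in pMb and Thy1 rose by 0.80 (adjusted p = 0.0431, edgeR). The list summed to 346 and 593 CPM in controls and 317 and 632 CPM after siRNA, with more in the second experiment than in the first. Gene by gene the experiments differed more than these sums. Over the 4 genes tested, the median log2 difference of control 2 from control 1 was 4.34 (from 0.65 to 5.29), against 0.00 over all genes. The 4 endothelial and 4 macrophage genes summed to at most 4.77 and 2.75 CPM in any pMb sample, and 2 macrophage genes, with a median of -0.82, were tested without passing (1 had an unadjusted p under 0.05). The part of these lists in the values of the lipid genes was not tested.

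Whether the change differed between the cell types was tested by the interaction of cell type and siRNA over all 8 samples. None of the 32 genes and none of the 17918 genes tested passed (0% called, edgeR), and 13 of the 32 genes had an unadjusted p under 0.05, against 8.2% of all genes. DESeq2 called 0 of the 32 genes and 17 others, 0.224% of the genes it tested. The change in pMb minus that in C2C12 cells was above 0 for 26 of 32 genes, where 48.8% of all genes were, with a median of 0.24. Acss2 had the largest difference, 0.99 (95% interval 0.36 to 1.62, adjusted p = 0.402, edgeR). Pmvk followed with 0.73 (0.40 to 1.05, adjusted p = 0.270, the lowest of the 32, edgeR) and Idi1 with 0.60 (0.30 to 0.91, adjusted p = 0.294, edgeR). The intervals given here were not adjusted for the number of genes tested. For Acaca and Scd2 the difference was 0.02 (-0.31 to 0.34) and 0.01 (-0.28 to 0.31). Calls in C2C12 cells and none in pMb are therefore not shown to be a difference between the cell types. Without the pMb pair 1 the interaction called 6 of the 32 genes, where 4.66% of all genes were called, and without the pMb pair 2 it called 6, where 1.38% were, with Fdps, Pmvk, Cyp51 and Idi1 in both. Without the C2C12 pair 1 or pair 2 it called 0 of the 32 genes, where 0.274% and 0.364% of all genes were called.

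Of 33 further lipid genes, 32 were tested. In C2C12 cells 2 rose and 1 fell, with a median of -0.00, beside 2.64% and 4.12% of all genes. In pMb 3 rose and none fell, with a median of 0.05, beside 3.95% and 1.04% of all genes. Mylip, a ubiquitin ligase for lipoprotein receptors, passed the test in both cells. It had 25.2 and 46.2 CPM in C2C12 controls and 34.2 and 53.1 CPM after siRNA (log2 fold change 0.31, adjusted p = 0.0211, edgeR), and 19.9 and 13.4 CPM in pMb controls and 27.8 and 18.6 CPM after siRNA (0.48, adjusted p = 0.0309). In C2C12 cells Acsl4, which activates long fatty acids, rose by 0.40 (adjusted p = 0.000882, edgeR), and Lpin1, a phosphatidate phosphatase, fell by 0.65 (adjusted p = 0.00177). In pMb Acat1, the mitochondrial thiolase, rose by 0.43 (adjusted p = 0.0244, edgeR), and Acsl1, another activating enzyme, rose by 0.52 (adjusted p = 0.0262). These calls depended on the method: with DESeq2, RLE factors or library size alone, 0 further lipid genes passed in pMb, and on the batch-corrected counts Acat1 alone did. In C2C12 cells Acsl4 alone passed with DESeq2, and Mylip did not pass on the batch-corrected counts either. Insig2, the second INSIG gene, had log2 fold changes of 0.00 and 0.19 in C2C12 cells and pMb, and Mbtps1, the protease that makes the first cut in SREBP, had -0.10 and -0.07, and neither passed the test.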

How the data were processed

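Polyadenylated RNA of 8 samples was sequenced paired-end. The authors mapped reads to GRCm38.p6 with STAR 2.7.2 and deposited counts per gene from featureCounts 2.0.1, without normalization. They also deposited a normalized signal for each cell type, in which counts adjusted with ComBat-Seq were divided by DESeq2 1.40.1 size factors, and 100% of its values were whole multiples of 1 count (tolerance 0.02), so the adjusted whole counts could be recovered. Tool versions are from the submitters' processing notes. The paper names Gencode, whereas the gene names are RefSeq symbols.

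In the raw counts, 16 broken lines were left out. Samples were grouped by their titles. The C2C12 samples and the pMb samples were fitted separately using edgeR 4.0.16 under R 4.3.3 (filterByExpr, TMM, quasi-likelihood test, Benjamini-Hochberg adjustment over all genes), with the replicate number as a block, since the study's methods name independent experiments and model batch effects with ComBat-Seq. They do not name the batch variable, and that the replicate number marks the experiment is taken from the labels' numbering. Deviations of samples with the same number correlated across genes with 0.678 in C2C12 cells and 0.820 in pMb. The interaction used all 8 samples, and the controls were compared without a block. SE was derived from the F statistic. Pair ratios used log2 CPM with a prior count of 2. Levels per kb used the merged exons of GENCODE release M21 on GRCm38, and summed levels and control levels were scaled over all 8 samples. Promoters are from RefSeq (GRCm38.p6), which gave windows for 25 of 32 genes.

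The 32 genes and the other lists were chosen with earlier results of these data known. By rule, values in every sample were given for genes passing in a cell type or, failing 8 such, for the 8 of largest change, and further lipid genes were named if they passed, plus Insig2 and Mbtps1. The fit was tested on simulated data with changes of 0.4 and 1 on the log2 scale. The changed genes were drawn from those with high counts, and every gene was given the same spread. Pairing by replicate number was built in, with the same change in each pair. The simulation therefore does not cover genes of low count and does not test the pairing. It recovered 87.0% and 100% of these among 15661 genes in C2C12 cells and 85.0% and 100% among 16782 in pMb. Of the genes it called, 4.59% in C2C12 cells and 6.57% in pMb were wrong calls. In the measured samples the SE of the 32 genes ran from 0.0656 to 0.127 in C2C12 cells and from 0.106 to 0.225 in pMb. Whether the share recovered holds at the spread of the measured pMb samples was not tested. Alternatives were RLE factors, library size alone, no filter, a minimum of 10 counts per sample, omission of the replicate block (for controls, a block), DESeq2 1.42.0 on raw or on batch-corrected counts, all 8 samples in 1 fit, and each replicate left out. Python 3.11.15 with pandas 2.3.3 and matplotlib 3.10.9 made the summaries and figures. The precision rests on 2 replicates per group.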

Additional observations from a re-analysis of the deposited data

How the results depend on the processing

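The replicate block decided the calls. Without the replicate block, 0 of the 32 lipid synthesis genes and 0 of the further lipid genes passed in either cell type, and Septin9 itself, at -1.35 in C2C12 cells and -1.21 in pMb, had an adjusted p of 1.00 in both (edgeR). The median of the 32 genes in C2C12 cells was -0.34 with and without it. Between controls, a replicate block called 24 of the 32 genes against 25 without. With all 8 samples in 1 fit, 3 genes passed in C2C12 cells and 1 in pMb, and 0 of the further lipid genes passed in C2C12 cells. With no filter, 2 of the 32 genes passed in pMb and 5 in the interaction. The share of all genes passing with no filter was not counted, so these counts have no background beside them. Of the further lipid genes, DESeq2 called 1 in C2C12 cells and 0 in pMb, DESeq2 on the batch-corrected counts called 1 in pMb, and RLE factors and library size alone called 0 in pMb. Library size alone moved the median of the 32 genes in pMb to -0.13.

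When replicates were left out in turn, the 32 genes gave 0 to 3 calls in C2C12 cells, 4 to 6 in pMb, 0 to 6 in the interaction and 8 to 18 between the controls, the further lipid genes gave 0 to 1 in C2C12 cells and 3 to 7 in pMb, and the median in pMb ran from -0.10 to -0.038. The cause of these shifts was not tested, beyond the fewer samples in such fits.

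Changes of sign touched values that were not called in the fit reported. In C2C12 cells Tm7sf2 gave -0.0015 with DESeq2, -0.012 on batch-corrected counts and -0.0060 with no filter, and Insig2 gave -0.0020, -0.0011 and -0.013. With library size alone, Fdft1 gave -0.0027 and Srebf2 -0.00051 in pMb, and the interaction gave -0.029 for Acaca and -0.032 for Scd2. With replicates left out in turn, the values ran from -0.23 to 0.25 for Tm7sf2, -0.0100 to 0.071 for Srebf1 and -0.065 to 0.089 for Insig2 in C2C12 cells. In pMb they ran from -0.11 to 0.061 for Mvk, -0.32 to 0.0048 for Sqle, -0.12 to 0.065 for Cyp51, -0.25 to 0.045 for Msmo1, -0.046 to 0.37 for Ebp, -0.047 to 0.11 for Srebf2, -0.59 to 0.012 for Fasn, -0.28 to 0.038 for Elovl6 and -0.29 to 0.13 for Lpin1, of which Sqle, Ebp and Fasn were called at the end farther from 0. In the interaction they ran from -0.46 to 0.017 for Tm7sf2, -0.010 to 0.14 for Srebf2, -0.16 to 0.22 for Acaca, -0.36 to 0.24 for Fasn and -0.024 to 0.081 for Scd2, and between the controls from -0.19 to 0.82 for Fasn. The 20 genes that fell in C2C12 cells and the 25 called between the controls kept their direction under each alternative run.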
